A study of Mus musculus with 2 samples.

Results

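The 9 genes described here are *Hhip*, the Hedgehog receptors and co-receptors *Ptch1*, *Smo*, *Gas1* and *Boc*, the transcription factors *Gli1*, *Gli2* and *Gli3*, and *Scube2*, which helps to release Hedgehog ligand. They were chosen by symbol from the 32285 genes in the gene list of the deposited files. Hedgehog ligands from the epithelium bind PTCH1 on mesenchymal cells, which ends the block that PTCH1 holds on SMO and lets GLI factors act on their targets. HHIP is a membrane protein that binds the ligands and so limits the signal, and *Hhip*, *Ptch1* and *Gli1* are themselves targets of the pathway. In the lung the pathway shapes the airway mesenchyme and the fibroblasts and smooth muscle cells around airways and alveoli.

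Single-cell RNA-seq had been made from the lungs of 2 mice at postnatal day 14, both *Gli1 creERT/+*:*Hhip flox/flox*. The *Gli1 HHIPCKO* mouse had received tamoxifen, and the control mouse oil at the same times. Each library mixed 3 parts of stromal cells with 1 part of epithelial cells, both sorted. The stromal cells had been gated on scatter and were negative for DAPI, CD31, CD45 and CD326. The comparison asks what follows, in each cell type, when *Hhip* is deleted in *Gli1*-lineage cells. The control library holds 43291709 unique molecular identifiers (UMIs) in 10999 cells and the *Gli1 HHIPCKO* library 52338969 in 12350. After filters on genes and mitochondrial UMIs, 10917 and 12115 cells were kept.

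Several features of the model bear on these genes. Cre stands at the *Gli1* locus in both mice, so *Gli1*, a gene described here, also drives the deletion, and how UMIs from that allele count towards *Gli1* was not tested. Recombination is limited to cells that expressed *Gli1* when tamoxifen was given, and their descendants. The floxed exon is not given in the sources used here, so *Hhip* UMIs outside it can remain in recombined cells and cannot serve as a check of the deletion. Tamoxifen itself, and the sex of the mice, cannot be told apart from the deletion. *Xist* was found in 0.109% of control cells against 55.7% in *Gli1 HHIPCKO*, and the Y-linked *Ddx3y* in 11.8% of control cells and in none of the 12350 *Gli1 HHIPCKO* cells (at most 0.0243%, from 3 counts). The libraries share 193 cell barcodes, of which 189 were kept in each, and the ratios in stromal cells without these cells are given beside those with them.

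Cells were clustered with the 9 genes, the pathway list and the sex-linked genes held out, and clusters were named from marker genes, with "-like" added. The classes hold 1260 control and 846 *Gli1 HHIPCKO* cells like alveolar myofibroblasts (ALMF), and 986 and 1208 like ductal myofibroblasts (DMF). There were 162 and 256 peribronchial and airway smooth muscle-like cells, 604 and 639 adventitial and 649 and 1782 alveolar fibroblast-like cells. Vascular smooth muscle-like cells numbered 143 and 174, pericyte-like cells 427 and 712, mesothelial-like cells 333 and 332, and AT2-like cells 2963 and 2807. The AT2-like class joins a cluster led by *Lcn2*, with 843 and 2275 cells, and another led by *Ager*, with 2120 and 532, so its make-up differed between the libraries. The adventitial class joins a cluster led by *Dcn*, with 407 and 522 cells, and another led by *Aqp1*, with 197 and 117. Its make-up differed between the libraries too. In 1 alveolar fibroblast-like cluster (399 and 920 cells) the Schwann markers scored highest, but stromal clusters were named from stromal lists only. The vascular smooth muscle-like cluster was led by *Actc1*, with *Actg2* and *Cnn1* among its leading genes, all on the peribronchial and airway list. That list scored 1.512 there, beside 2.371 for the vascular list. Smaller classes resembled ciliated, endothelial, immune and red cells. Clusters that met no naming rule held 21.9% of control and 22.9% of *Gli1 HHIPCKO* cells. Stromal cells stands for the 7 fibroblast, smooth muscle and pericyte classes and the unnamed stromal clusters together, 5124 control and 6918 *Gli1 HHIPCKO* cells. Myofibroblast clusters stands for the ALMF-like and DMF-like clusters and the unnamed clusters that scored for these classes. One of the latter, with 60 and 135 cells, was led by the adipocyte genes *Car3*, *Fabp4* and *Thrsp*, and results over ALMF-like and DMF-like cells alone are given among the alternative settings.

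The sorted stromal cells were checked for markers of other lineages. All 6 stromal marker genes had UMIs in stromal cells, at 41471 counts per 1000000 UMIs of the class (CPM) in the control and 38287 CPM in the *Gli1 HHIPCKO* library, summed over the list, and *Col3a1* was the most abundant. The 8 AT2 markers also all had UMIs there, with 2317 and 1495 CPM in sum, of which *Sftpc* held 2059.6 and 1266. The 5 epithelial markers summed to 12.2 and 8.48 CPM. Of the 9 immune markers, 9 had UMIs in control and 7 in *Gli1 HHIPCKO*, with 179.5 and 157 CPM in sum, of which *Lyz2* held 174.3 and 153.8. *Lyz2* was at 19763 and 22785 CPM in AT2-like cells, above its 2471 and 4898 CPM in immune-like cells. The 6 red cell markers summed to 437 and 569 CPM, led by *Hbb-bs*. Likely doublets stay in the values given, and the setting without them left out 953 control and 1174 *Gli1 HHIPCKO* cells, those with the most simulated doublets among their neighbours. The part of free RNA and doublets in the values below was not tested beyond levels in classes of other lineages and the setting without doublets.

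Each log2 ratio sets *Gli1 HHIPCKO* over control, followed by its 95% exact binomial (Clopper-Pearson) interval, and each CPM has a 95% exact Poisson interval. With 1 library per group these intervals cover counting error only, and no test of a difference between mice was possible. CPM are not scaled to gene length, so levels are compared between classes and libraries, not between genes. Gene positions are on GRCm38/mm10 from GENCODE vM21.

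Across stromal cells, *Hhip* fell in *Gli1 HHIPCKO*, *Gli1* and *Scube2* rose, and *Ptch1* was higher by less than 2-fold. With equal weight for each stromal class the log2 ratio of *Scube2* was 0.66, short of 2-fold. In DMF-like cells *Hhip* and *Gas1* fell and *Gli1* and *Ptch1* rose. A gene is said to rise or fall where its CPM differed by at least 2-fold between the libraries, among genes with at least 50 UMIs over both libraries in the class. In stromal cells, 2 of the 9 genes rose and 1 fell, where 2.66% of all 12656 genes tested rose and 1.80% fell. In myofibroblast clusters the same counts, 2 and 1 of 9, stood beside 3.31% and 1.98% of 11178 genes. In ALMF-like cells 2 rose (*Gli1* and *Scube2*) and 0 fell, beside 3.05% and 1.66% of 9610 genes. In DMF-like cells 2 rose and 2 fell, beside 2.55% and 2.11% of 9680 genes. All 9 genes had enough UMIs in each of these groups of cells. The ALMF-like count depends on the setting, and was 0 with thinned cells, with all deposited barcodes or with at least 200 UMIs, and 1 with other clusterings.

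In peribronchial and airway smooth muscle-like cells 6 of the 9 genes had enough UMIs. Of these *Ptch1* rose and *Hhip* and *Boc* fell, beside 2.91% and 2.21% of 4942 genes, and with a minimum of 20 UMIs 5 passed 2-fold there, beside 8.76% of all genes. In adventitial fibroblast-like cells 0 of 9 rose and 1 (*Hhip*) fell, beside 2.06% and 1.25% of 8631 genes, and 2 passed with each library clustered on its own. In alveolar fibroblast-like cells 0 of 9 rose and 2 (*Hhip* and *Gas1*) fell, beside 2.03% and 2.30% of 9976 genes, and 1 passed in place of 2 with all deposited barcodes or without doublets. Vascular smooth muscle-like cells had 1 gene with enough UMIs (*Gas1*) and pericyte-like cells 4 (*Ptch1*, *Smo*, *Gas1* and *Boc*), and none of these passed 2-fold. In the former class 1 to 4 passed with all deposited barcodes, resolution 0.5, each library clustered on its own or at least 20 UMIs, and in the latter 1 passed under the last 3 of these. Of all genes, 2.98% rose and 1.33% fell of 3393 tested in the former class and 2.02% and 0.643% of 6529 in the latter. The median log2 ratio of the 9 genes was −0.11 in stromal cells, where the median of all genes tested was −0.019. In DMF-like cells it was −0.21, beside 0.021 over all genes.

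**Figure D1:**
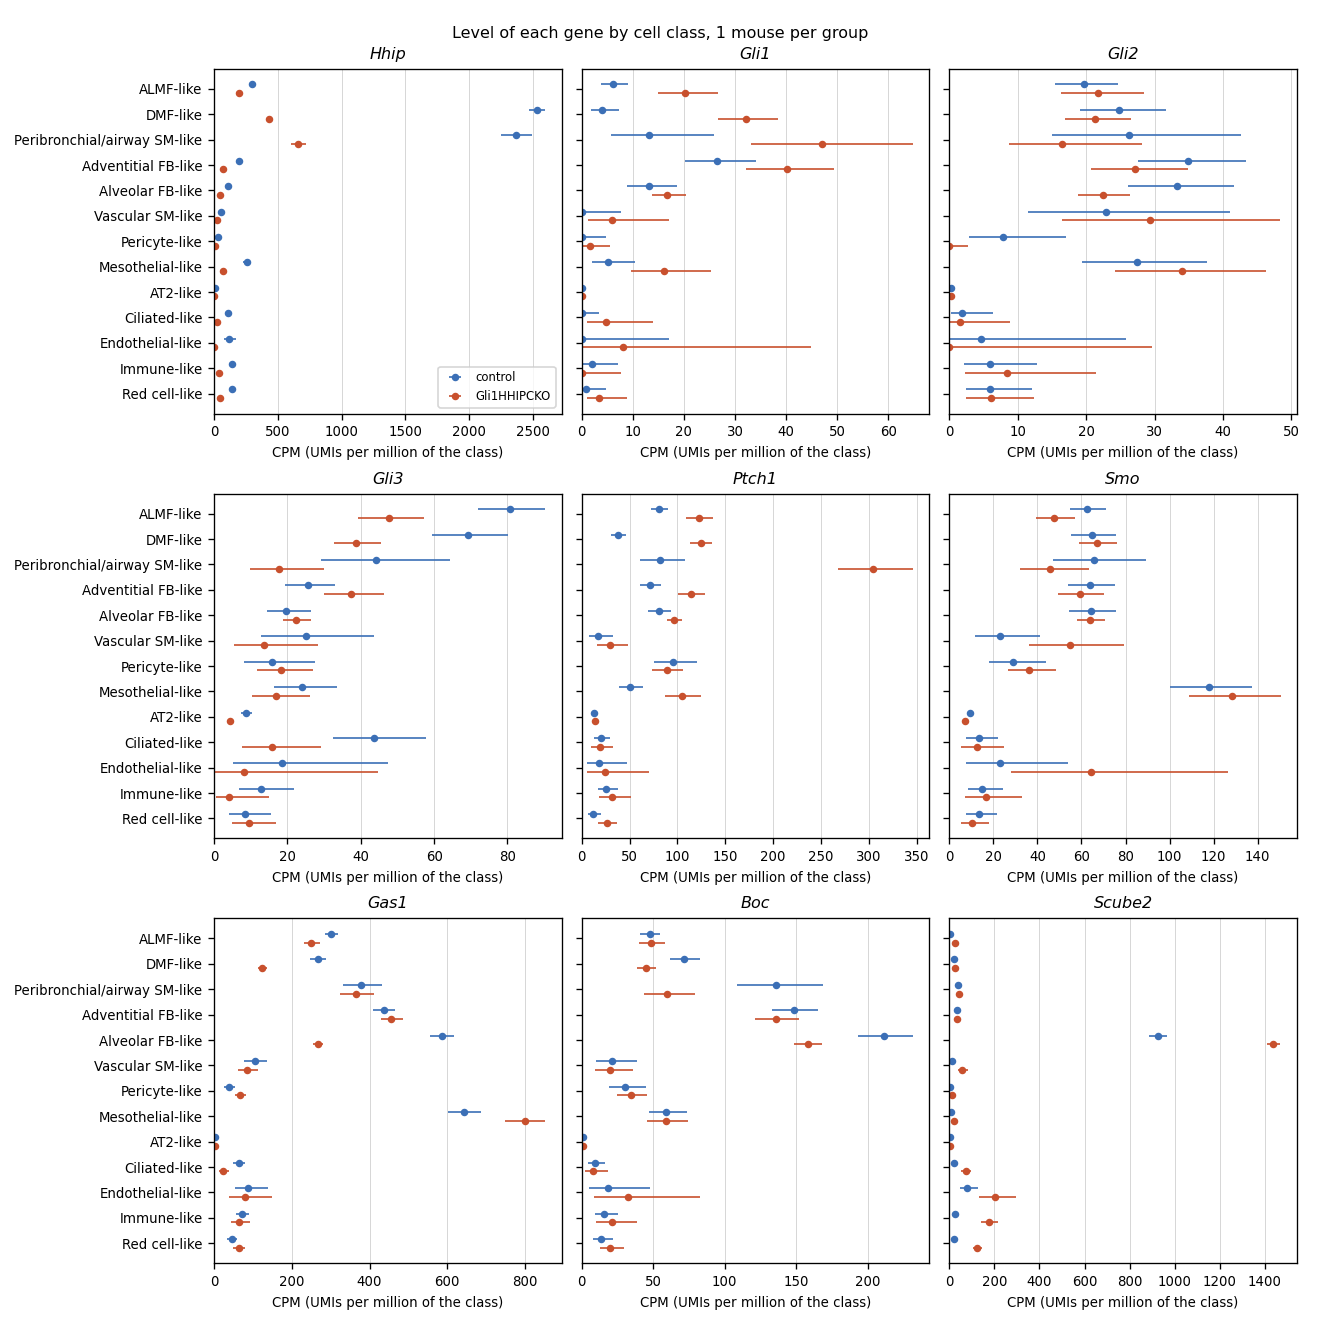
Level of each of the 9 genes in CPM (x axis) in 13 cell classes (y axis), control in blue and *Gli1 HHIPCKO* in orange, each point the sum over 1 library with its 95% exact Poisson interval. *Hhip* in DMF-like cells stands at 2531 CPM in control against 432 CPM in *Gli1 HHIPCKO*, and *Ptch1* in peribronchial and airway smooth muscle-like cells at 82.0 and 305 CPM.

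*Hhip* (ENSMUSG00000064325; chr8:79965851-80058006), the targeted gene, was highest in DMF-like cells of the control, at 2531 CPM (2470.0 to 2594). Peribronchial and airway smooth muscle-like cells were next, at 2369 CPM (2249 to 2495), and the intervals of these classes overlapped. ALMF-like cells stood apart and lower, at 300.4 CPM (283 to 318). Mesothelial-like cells followed at 255 CPM and adventitial fibroblast-like cells at 197 CPM, each apart from its neighbours in the order. Immune-like and red cell-like cells held 141 and 139 CPM, with UMIs in 23 of 398 and 27 of 217 cells. Endothelial-like cells held 115.7 CPM and ciliated-like cells 110.5 CPM, with intervals overlapping from neighbour to neighbour down to the alveolar class. Free RNA and doublets were not told apart in these classes of other lineages. Alveolar fibroblast-like cells had 107 CPM, vascular smooth muscle-like cells 52.0 CPM, pericyte-like cells 31.5 CPM and AT2-like cells 3.32 CPM. A UMI was found in 21.4% of alveolar fibroblast-like cells (14.5% thinned to 2000 UMIs) and 1.62% of AT2-like cells (0.560% thinned).

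In *Gli1 HHIPCKO* the order changed, and peribronchial and airway smooth muscle-like cells were highest, at 659 CPM (604 to 718). DMF-like cells followed at 432 CPM (411 to 454) and ALMF-like cells at 197 CPM (179.8 to 216), and these intervals did not overlap. Adventitial and mesothelial-like cells overlapped at 72.2 and 71.4 CPM, and alveolar fibroblast-like cells (49.0 CPM) overlapped red cell-like cells (45.7 CPM).

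By the levels over each class, *Hhip* fell in 4 of the 7 stromal classes, and in both of those with the highest control level. Vascular smooth muscle-like and pericyte-like cells had too few UMIs for this count. Their log2 ratios were −1.15 (−2.28 to −0.10) and −1.92 (−3.09 to −0.83). Over all stromal cells *Hhip* went from 746 to 177 CPM (log2 ratio −2.08, −2.13 to −2.03), and without the shared barcodes the ratio was −2.09. The log2 ratio was −2.55 (−2.63 to −2.47) in DMF-like, −1.85 (−1.99 to −1.70) in peribronchial and airway smooth muscle-like and −1.45 (−1.72 to −1.18) in adventitial fibroblast-like cells. In ALMF-like cells it was −0.61 (−0.76 to −0.45), short of 2-fold, and it depended on the clustering there, with −0.37 at resolution 2 and −0.91 at resolution 0.5. The class joins clusters whose cells came mainly from 1 library each, and within them *Hhip* was at 292 and 78.7 CPM and at 675 and 211 CPM, past 2-fold in both. Mesothelial-like cells went from 255 to 71.4 CPM (log2 ratio −1.84, −2.20 to −1.49). Alveolar fibroblast-like cells had a ratio of −1.12 (−1.37 to −0.87), which was −0.86 as a mean over cells. Red cell-like cells went from 139 to 45.7 CPM and immune-like cells from 141 to 35.5 CPM. Ciliated-like cells went from 110.5 to 20.5 CPM and AT2-like cells from 3.32 to 1.55 CPM, and endothelial-like cells had 25 and 0 UMIs.

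*Ptch1* (ENSMUSG00000021466; chr13:63508328-63573598) encodes the receptor that binds Hedgehog ligand and holds SMO inactive without it. In control its levels lay close together, from 95.7 CPM (75.0 to 120.3) in pericyte-like cells through 82.0 in peribronchial and airway smooth muscle-like, 81.0 in ALMF-like and 80.4 in alveolar to 71.0 CPM in adventitial fibroblast-like cells. Each of these intervals overlapped the next. Mesothelial-like cells had 50.6 CPM, and DMF-like cells were low among the fibroblast classes, at 38.1 CPM (30.9 to 46.5). Vascular smooth muscle-like cells had 16.7 CPM, beside 25.5 CPM in immune-like and 12.3 CPM in AT2-like cells. In *Gli1 HHIPCKO*, peribronchial and airway smooth muscle-like cells stood apart at 305 CPM (267 to 346). DMF-like cells were next at 124 CPM, with intervals overlapping from neighbour to neighbour down to pericyte-like cells at 88.6 CPM.

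Among the stromal classes, *Ptch1* thus rose in DMF-like and in peribronchial and airway smooth muscle-like cells, in which *Hhip* had been highest. The log2 ratio was 1.89 (1.45 to 2.36) in peribronchial and airway smooth muscle-like cells and 1.71 (1.39 to 2.04) in DMF-like cells, where the alternative settings gave 1.51 to 1.75. It was 0.60 (0.36 to 0.83) in ALMF-like and 0.68 (0.39 to 0.98) in adventitial fibroblast-like cells, without passing 2-fold. With each library clustered on its own, the value in adventitial cells came to 0.16. In alveolar fibroblast-like cells it was 0.27 (0.027 to 0.51) and turned to −0.020 with cells thinned to 2000 UMIs. Pericyte-like cells had a ratio of −0.11 (−0.54 to 0.33), which is not a detectable difference at this depth. Mesothelial-like cells went from 50.6 to 105 CPM (log2 ratio 1.05, 0.61 to 1.49). In that class red cell markers summed to 2071 and 4942 CPM, AT2 markers to 45984 and 53937 CPM, and the part of other cells in its ratios was not tested. Over all stromal cells the level was 66.3 CPM in control against 113 CPM in *Gli1 HHIPCKO* (log2 ratio 0.77, 0.67 to 0.88), and 0.78 without the shared barcodes. In AT2-like cells the levels were 12.3 and 13.4 CPM.

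*Smo* (ENSMUSG00000001761; chr6:29735503-29761365) encodes the membrane protein that carries the signal inward once PTCH1 is bound. It was highest in mesothelial-like cells of both libraries, at 118 CPM (100.4 to 137) and 128 CPM (109 to 150.5), apart from the 7 stromal classes. Levels in the fibroblast classes lay close together. In control, the peribronchial, DMF-like, alveolar, adventitial and ALMF-like classes followed within 62.6 to 65.6 CPM with overlapping intervals, and pericyte-like cells were lower at 28.8 CPM. In *Gli1 HHIPCKO* the same 5 classes lay within 45.7 to 67.0 CPM. The ratio in stromal cells was −0.045 (−0.17 to 0.078), with 0 inside its interval. Among the stromal classes with enough UMIs it ran from −0.52 (−1.21 to 0.17) in peribronchial and airway smooth muscle-like to 0.33 (−0.42 to 1.13) in pericyte-like cells. Of these classes, the interval left out 0 in ALMF-like cells, at −0.39 (−0.73 to −0.067), and none passed 2-fold. In AT2-like cells it left out 0 too, at −0.43 (−0.80 to −0.068), but within each of the AT2-like clusters the intervals of the levels overlapped, at 9.38 and 6.79 CPM and at 9.32 and 7.62 CPM. Vascular smooth muscle-like cells, with 11 and 28 UMIs and so under the minimum, had 22.9 and 54.7 CPM (log2 ratio 1.26, 0.21 to 2.41). Red cell markers in this class summed to 398 and 5405 CPM, and the part of other cells in the ratio was not tested.

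*Gas1* (ENSMUSG00000052957; chr13:60174405-60177365) encodes a GPI-anchored co-receptor that helps PTCH1 to bind ligand. In control it was highest in mesothelial-like cells, at 644 CPM (602 to 687), overlapping alveolar fibroblast-like cells at 586 CPM (555 to 619). Adventitial (436 CPM) and peribronchial (379 CPM) classes overlapped next, and then ALMF-like (302 CPM) and DMF-like cells (267 CPM). Vascular smooth muscle-like cells had 104 CPM and pericyte-like cells 38.0 CPM, beside 71.7 CPM in immune-like and 1.62 CPM in AT2-like cells. In *Gli1 HHIPCKO* the mesothelial-like cells stood apart at 799 CPM (749 to 852), and alveolar fibroblast-like cells, at 268 CPM, had dropped behind the adventitial (456 CPM) and peribronchial (366 CPM) classes.

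The *Gas1* level fell in alveolar fibroblast-like and DMF-like cells. Its log2 ratio was −1.13 (−1.23 to −1.03) in alveolar fibroblast-like cells and −0.98, just short of 2-fold, without doublets, and −1.77 with each library clustered on its own. In DMF-like cells it was −1.10 (−1.28 to −0.93), and short of 2-fold at −0.74 with resolution 0.5 and at −0.83 with all deposited barcodes. The other stromal classes with enough UMIs stayed within 2-fold. ALMF-like cells had −0.27 (−0.41 to −0.13), and the interval included 0 in peribronchial and airway smooth muscle-like cells, at −0.050 (−0.31 to 0.21), and in adventitial fibroblast-like cells, at 0.065 (−0.063 to 0.19). In vascular smooth muscle-like cells it did too, at −0.31 (−0.93 to 0.31). The settings turned the direction in these 3 classes or moved it, over −0.34 to −0.022, −0.11 to 0.23 and −0.37 to 1.56 in the same order, and gave −0.45 to −0.18 in ALMF-like cells. Over stromal cells it was −0.58 (−0.63 to −0.52), −0.58 without the shared barcodes and −0.39 with equal weight for each stromal class. *Gas1* was higher in 2 classes outside the fibroblasts, short of 2-fold. Mesothelial-like cells had a ratio of 0.31 (0.18 to 0.45). In pericyte-like cells, with 38.0 and 67.4 CPM, it was 0.83 (0.21 to 1.48), and −0.32 with each library clustered on its own.

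*Boc* (ENSMUSG00000022687; chr16:44485049-44558897) encodes an immunoglobulin-domain co-receptor of the ligands. Alveolar fibroblast-like cells had the highest level in both libraries, at 212 CPM (193 to 231) and 158 CPM (148 to 168). Adventitial fibroblast-like cells were next, at 149 and 136 CPM, apart from the alveolar class in control and overlapping it in *Gli1 HHIPCKO*. The peribronchial class overlapped the adventitial one in control (136 CPM) but not in *Gli1 HHIPCKO* (59.7 CPM). DMF-like (71.6 and 44.9 CPM), mesothelial-like (59.2 and 58.6 CPM) and ALMF-like cells (47.6 and 48.4 CPM) formed a lower group. Pericyte-like cells had 30.2 and 34.1 CPM.

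*Boc* fell in peribronchial and airway smooth muscle-like cells, with a log2 ratio of −1.19 (−1.74 to −0.66), which was −0.97 with each library clustered on its own. The ratio was −0.67 (−0.99 to −0.36) in DMF-like and −0.42 (−0.58 to −0.26) in alveolar fibroblast-like cells, both below 0 without passing 2-fold, and the latter was −0.14 without doublets. It was 0.026 (−0.32 to 0.37) in ALMF-like, −0.13 (−0.36 to 0.098) in adventitial fibroblast-like and 0.18 (−0.58 to 0.97) in pericyte-like cells, with 0 inside each interval. The small difference over stromal cells, −0.11 (−0.21 to −0.011), turned to 0.054 with thinned cells and came to −0.41 with equal weight for each stromal class.

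**Figure D2:**
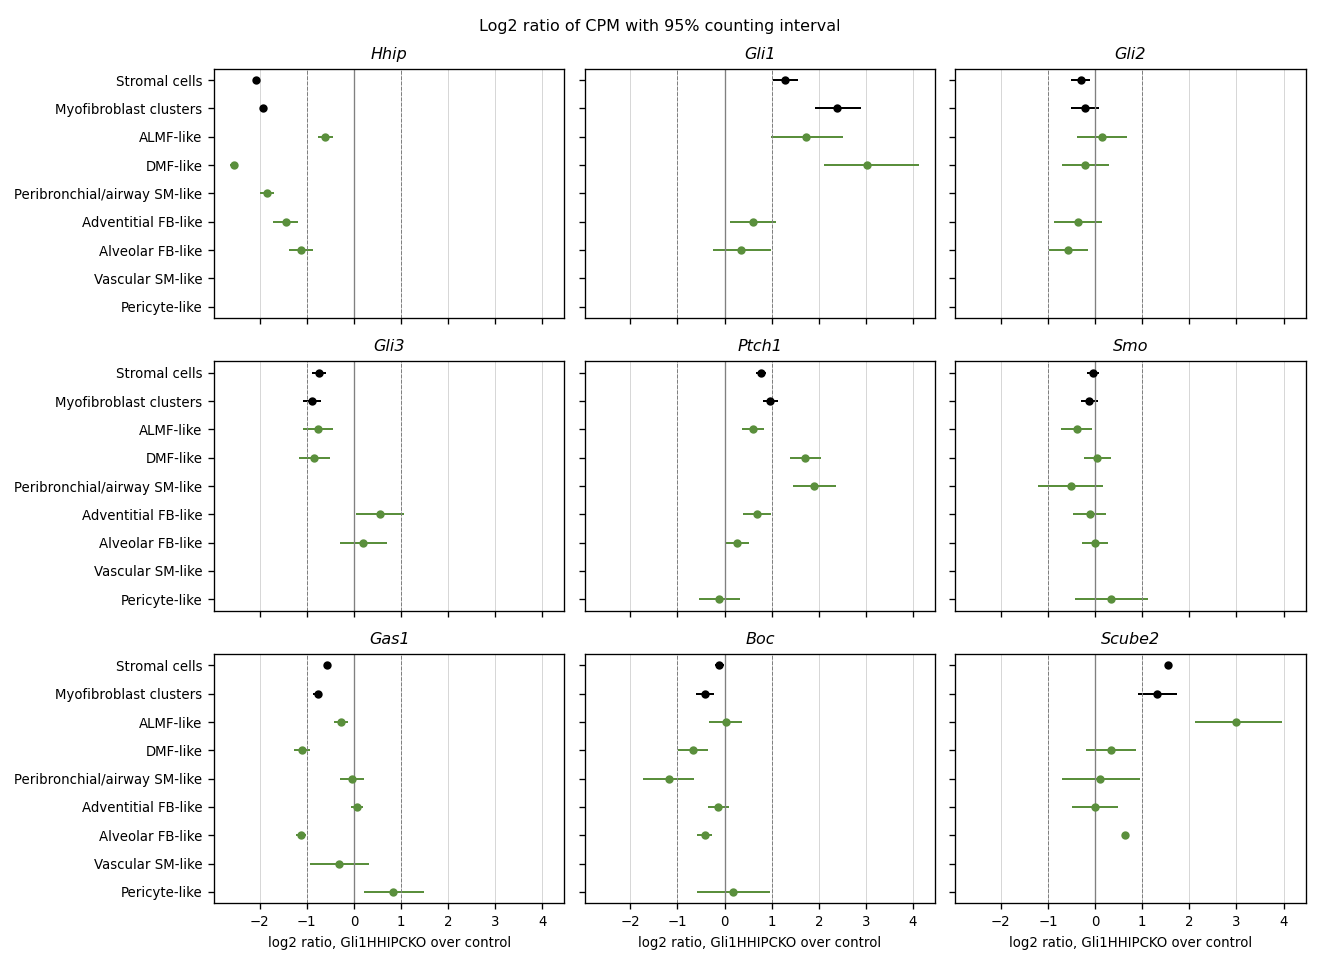
Log2 ratio of CPM, *Gli1 HHIPCKO* over control (x axis), for each of the 9 genes in stromal cells and myofibroblast clusters (black) and in the 7 stromal classes (green) on the y axis, with 95% exact binomial intervals and dashed lines at 2-fold, shown where a gene had at least 50 UMIs. *Hhip* lies below 0 wherever it is drawn, and *Gli1* reaches 3.03 in DMF-like cells.

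*Gli1* (ENSMUSG00000025407; chr10:127329882-127341974) encodes a transcriptional activator whose own expression follows pathway activity. It was sparse, with 148 UMIs in control and 505 in *Gli1 HHIPCKO* stromal cells. In control it was highest in adventitial fibroblast-like cells, at 26.5 CPM (20.2 to 34.1), with overlapping intervals down through the peribronchial (13.1 CPM), alveolar (13.1 CPM), ALMF-like (6.05 CPM), mesothelial-like (5.06 CPM) and DMF-like (3.93 CPM) classes. In *Gli1 HHIPCKO* the peribronchial (47.0 CPM), adventitial (40.2 CPM) and DMF-like classes (32.2 CPM) led with overlapping intervals. ALMF-like (20.1 CPM), alveolar (16.8 CPM) and mesothelial-like cells (16.1 CPM) followed. AT2-like cells held 0.0677 and 0.0596 CPM. Vascular smooth muscle-like and pericyte-like cells had 0 *Gli1* UMIs in control, which allows up to 7.68 and 4.84 CPM, and 3 and 2 UMIs in *Gli1 HHIPCKO*.

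The myofibroblasts showed the largest *Gli1* ratios among the classes tested. In DMF-like cells *Gli1* rose from 10 to 119 UMIs (log2 ratio 3.03, 2.10 to 4.13), and the alternative settings gave 2.83 to 3.25. In myofibroblast clusters together the log2 ratio was 2.38 (1.91 to 2.89). In ALMF-like cells it was 1.73 (0.99 to 2.52), but 0.0054 (−2.00 to 1.58) with clustering at resolution 0.5, and these intervals overlap. Over stromal cells *Gli1* rose from 9.28 to 22.6 CPM (log2 ratio 1.29, 1.02 to 1.56), with a ratio of 1.28 without the shared barcodes. Peribronchial and airway smooth muscle-like cells had 8 and 37 UMIs, under the minimum for the count of genes, with a ratio of 1.84 (0.72 to 3.15). The ratio was 0.60 (0.11 to 1.10) in adventitial fibroblast-like cells and 0.35 (−0.24 to 0.99) in alveolar fibroblast-like cells, where a difference was not detectable at this depth.

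*Gli2* (ENSMUSG00000048402; chr1:118834132-119053619) encodes the main activator early in the response. Its levels in control ran from 34.8 CPM (27.6 to 43.4) in adventitial fibroblast-like cells to 19.7 CPM in ALMF-like cells, every neighbour overlapping, and pericyte-like cells had 7.87 CPM. In *Gli1 HHIPCKO* it was highest in mesothelial-like cells, at 34.0 CPM (24.3 to 46.3), again with overlapping neighbours, down to 16.5 CPM in the peribronchial class. Pericyte-like cells had 0 UMIs there, which allows up to 2.79 CPM. The log2 ratio was −0.31 (−0.50 to −0.11) in stromal cells and −0.57 (−0.98 to −0.15) in alveolar fibroblast-like cells, both below 0. It was −0.21 (−0.71 to 0.29) in DMF-like, −0.36 (−0.87 to 0.14) in adventitial fibroblast-like and 0.14 (−0.39 to 0.67) in ALMF-like cells. The last of these came to −1.78 at resolution 0.5, to −0.60 with all deposited barcodes and to −0.56 without doublets, the last 2 with 0 inside their intervals.

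*Gli3* (ENSMUSG00000021318; chr13:15463235-15730026) encodes a factor that is processed to a repressor when the pathway is off. It was highest in the myofibroblasts of both libraries, at 80.7 CPM (71.9 to 90.2) in ALMF-like and 69.2 CPM (59.3 to 80.2) in DMF-like cells of the control, with overlapping intervals. In *Gli1 HHIPCKO* these classes had 47.6 and 38.7 CPM, and adventitial fibroblast-like cells, at 37.5 CPM, now overlapped them. The peribronchial class had 44.3 CPM in control against 17.8 CPM in *Gli1 HHIPCKO*, with too few UMIs for the count. In control, adventitial (25.6 CPM), vascular smooth muscle-like (25.0 CPM), mesothelial-like (23.8 CPM), alveolar (19.7 CPM) and pericyte-like cells (15.7 CPM) overlapped one with the next. Ciliated-like cells carried 43.7 and 15.8 CPM.

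*Gli3* was lower in the *Gli1 HHIPCKO* myofibroblasts, short of 2-fold. The log2 ratio was −0.76 (−1.08 to −0.45) in ALMF-like and −0.84 (−1.17 to −0.51) in DMF-like cells, and −0.89 (−1.08 to −0.70) over myofibroblast clusters. Adventitial fibroblast-like cells went the other way, at 0.55 (0.049 to 1.06), with an interval just above 0, and alveolar fibroblast-like cells had 0.19 (−0.31 to 0.71). Over stromal cells the ratio was −0.73 (−0.88 to −0.59). AT2-like cells had 8.67 and 4.41 CPM. Within their clusters these were 7.92 and 4.55 CPM in that led by *Lcn2*, with overlapping intervals, and 9.02 and 3.61 CPM in that led by *Ager*.

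*Scube2* (ENSMUSG00000007279; chr7:109798676-109865679) encodes a secreted protein that helps to release lipid-modified ligand from the cells that make it. Alveolar fibroblast-like cells had far more of it than any other class, at 925 CPM (886 to 965) in control and 1439 CPM (1409 to 1469) in *Gli1 HHIPCKO*. The endothelial-like class had 78.7 and 201 CPM, from 11 of 104 and 5 of 56 cells, while its stromal markers summed to 6931 and 19434 CPM. Immune-like cells had 25.5 CPM in control against 175 CPM in *Gli1 HHIPCKO*, and red cell-like cells 22.7 and 124 CPM. In *Gli1 HHIPCKO* the immune-like UMIs lay in 16 of 178 cells, and free RNA and doublets were not told apart in these classes. AT2-like cells had 1.15 and 2.74 CPM. In control, the peribronchial class had 37.7 CPM, followed by the adventitial (32.2 CPM), DMF-like (18.5 CPM), vascular smooth muscle-like (12.5 CPM), mesothelial-like (7.95 CPM), ALMF-like (3.42 CPM) and pericyte-like cells (1.31 CPM).

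Within alveolar fibroblast-like cells the *Scube2* log2 ratio was 0.64 (0.57 to 0.71), and 0.20 without doublets. Over stromal cells *Scube2* rose from 159 to 464 CPM (log2 ratio 1.54, 1.48 to 1.61). The alveolar class made up 649 of 5124 stromal cells in control and 1782 of 6918 in *Gli1 HHIPCKO*. With the same weight for each stromal class in both libraries the stromal ratio was 0.66, short of 2-fold. In ALMF-like cells *Scube2* rose from 3.42 to 27.1 CPM, with a ratio of 2.99 (2.12 to 3.97), and the alternatives gave 1.33 to 3.34. These levels are under those of immune-like cells and above those of AT2-like cells in both libraries, and the part of free RNA was not tested. In DMF-like cells it was 0.33 (−0.20 to 0.88), in adventitial fibroblast-like cells −0.0072 (−0.50 to 0.48) and in peribronchial and airway smooth muscle-like cells 0.11 (−0.71 to 0.95), with 0 inside each interval. Under the minimum of UMIs, vascular smooth muscle-like cells had 12.5 and 56.7 CPM (log2 ratio 2.18, 0.89 to 3.74) and pericyte-like cells 1.31 and 9.85 CPM (2.91, 0.17 to 8.32). In the former class red cell markers summed to 398 and 5405 CPM, and the part of other cells in the ratio was not tested. The adventitial value ran from −1.09 to 0.65 over the settings.

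The ALMF-like and DMF-like clusters each came mainly from 1 library, so some levels were also compared within clusters. Those of *Gli1* and *Scube2* within these clusters, and of *Ptch1* in the cluster led by *Ace*, are not given here. The cluster led by *Stc1*, *Bmp2* and *Vsnl1* held 1229 control and 93 *Gli1 HHIPCKO* ALMF-like cells, with *Hhip* at 292 and 78.7 CPM and *Ptch1* at 79.0 and 146 CPM. The other ALMF-like cluster, led by *Lnx1*, *Ddit4* and *Entpd1* with 1 ALMF marker (*Egfem1*) among its 10 leading genes, held 31 and 753 cells, and *Hhip* was at 675 and 211 CPM. There *Ptch1* was at 169 and 119.6 CPM, with overlapping intervals. Within both clusters, then, *Hhip* was lower in *Gli1 HHIPCKO*, and *Hhip* was higher in the second cluster than in the first in each library. The DMF-like cluster led by *Efnb2*, *Enpp2* and *Igfbp5* held 963 and 24 cells, with *Hhip* at 2543 and 487 CPM, *Ptch1* at 38.7 and 142 CPM and *Gas1* at 270.2 and 60.9 CPM. The DMF-like cluster led by *Ace*, *Thbs2* and *Lgr6* held 23 and 1184 cells, with *Hhip* at 2047 and 432 CPM and *Gas1* at 132 and 125 CPM. *Gas1* was thus lower in the former cluster, while in the latter, with 23 control cells, a difference was not detectable.

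An unnamed myofibroblast cluster led by *Fos*, *Junb* and *Egr1*, which scored alike for both myofibroblast classes, held both libraries in like number, 484 and 620 cells. It was looked at after its cell numbers were seen. *Hhip* was at 933 CPM in control against 198 CPM in *Gli1 HHIPCKO* there, and *Gas1* at 336 and 179.8 CPM. *Gli1* was at 4.80 and 27.4 CPM, *Ptch1* at 51.7 and 109 CPM, and *Gli3* at 77.3 and 39.9 CPM.

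The share of cells with a UMI follows depth, so shares are given also with each cell thinned to 2000 UMIs. The median was 2865 UMIs per stromal cell in control and 2997.5 in *Gli1 HHIPCKO*, and thinning left out 1164 and 1663 cells. *Hhip* was found in 41.9% (40.5% to 43.2%) of control and 28.8% (27.7% to 29.8%) of *Gli1 HHIPCKO* stromal cells, and in 39.0% and 23.6% after thinning. In AT2-like cells, with medians of 4831 and 5732 UMIs, the share was 1.62% and 0.926%, the lowest of the non-stromal classes in control. Thinned shares were 9.64% and 9.09% in immune-like, 8.21% and 8.70% in red cell-like and 9.47% and 4.12% in ciliated-like cells, beside 14.5% and 8.11% in alveolar and 20.2% and 8.23% in adventitial fibroblast-like cells. Among DMF-like cells, 86.3% held *Hhip* in control and 60.3% in *Gli1 HHIPCKO*, or 85.5% and 49.1% in the 732 and 1025 thinned cells, 254 and 183 shallower ones being left out.

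A *Ptch1* UMI was found in 16.9% (15.9% to 18.0%) of control and 26.6% (25.6% to 27.7%) of *Gli1 HHIPCKO* stromal cells, or 12.3% and 18.9% after thinning. AT2-like cells had 5.80% and 7.66% at their own depth, and 2.77% and 2.77% once thinned, without 108 and 61 shallower cells. In DMF-like cells the *Ptch1* share was 8.52% and 29.0%, or 7.38% and 20.1% in thinned cells. A larger share of DMF-like cells thus held a *Ptch1* UMI in *Gli1 HHIPCKO* at equal depth. *Gli1* was found in 2.81% and 6.79% of stromal cells (1.69% and 4.34% thinned), beside 0.0337% and 0.0356% of AT2-like cells. Among DMF-like cells it was found in 1.01% and 9.19% (0.683% and 5.66% thinned). *Scube2* went from 13.1% to 29.1% of stromal cells (11.5% and 28.9% thinned), beside 0.540% and 1.60% of AT2-like cells.

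The shares of *Gas1*, *Gli3* and *Gli2* in stromal cells were lower in *Gli1 HHIPCKO*. *Gas1* was in 46.3% of control and 36.1% of *Gli1 HHIPCKO* stromal cells (40.3% and 29.2% thinned), and in 0.810% and 0.713% of AT2-like cells. *Gli3* was in 14.0% and 9.19% (9.85% and 5.67% thinned), beside 4.22% and 2.46% of AT2-like cells. *Gli2* was in 7.44% and 5.98% (5.05% and 4.11% thinned), beside 0.101% and 0.143%. The shares of *Smo* and *Boc* were alike in the libraries. They were 16.6% and 16.4% for *Smo* (11.5% and 10.4% thinned), beside 4.49% and 4.06% of AT2-like cells. For *Boc* they were 20.7% and 20.4% (14.8% and 15.2% thinned), beside 0.371% and 0.428%.

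Stromal cells with a *Gli1* UMI, 144 in control and 470 in *Gli1 HHIPCKO*, were set beside those without one, as a description. They were deeper, with medians of 3874 against 2847 UMIs in control and 3626 against 2954 in *Gli1 HHIPCKO*. A *Ptch1* UMI was found in 27.8% of the cells with *Gli1* and 16.6% of those without in control, and in 34.7% and 26.0% in *Gli1 HHIPCKO*. At equal depth these were 14.9% (7.40% to 25.7%) and 12.3% in control and 22.8% (17.5% to 28.8%) and 18.7% in *Gli1 HHIPCKO*, with overlapping intervals. *Smo* in *Gli1 HHIPCKO* was the exception, at 15.8% (11.3% to 21.2%) of thinned cells with *Gli1* and 10.2% (9.36% to 11.1%) without, while in control it was 10.4% and 11.6%. For *Hhip* the thinned shares were 38.8% and 39.0% in control and 25.9% and 23.5% in *Gli1 HHIPCKO*. *Gli2* had 5.97% and 5.03% in control and 5.26% and 4.06% in *Gli1 HHIPCKO*, and *Gli3* 5.97% and 9.92%, and 7.89% and 5.57%. Cells that expressed *Gli1* and those in which no UMI was caught cannot be told apart at this depth.

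Around the 9 genes, a list of 46 further pathway genes was fixed by role, with 8 for ligands and their release, 7 for reception at the surface, 19 for transduction and 12 targets known in mesenchyme. In stromal cells 0 rose and 3 fell of 40, with a median log2 ratio of −0.10 beside −0.019 over all genes. In DMF-like cells 4 rose and 0 fell of 29, with a median log2 ratio of 0.20 beside 0.021 over all genes. There 21 of the ratios were above 0 and 8 below. The count past 2-fold was 2 in place of 4 there with thinned cells, all deposited barcodes, resolution 0.5 or each library clustered on its own, and it was 1 in place of 3 in stromal cells with median-of-ratios scaling. In myofibroblast clusters it was 5 in place of 8 without doublets, 4 with thinned cells and 2 with at least 200 UMIs. In alveolar fibroblast-like cells it was 2 in place of 5 without doublets, and 3 with thinned cells, resolution 2 or at least 200 UMIs. Counts in the other classes also changed with the setting. In myofibroblast clusters 4 rose and 4 fell of 38, with a median log2 ratio of 0.023 beside −0.018 over all genes, and in ALMF-like cells 0 rose and 2 fell of 31, with a median log2 ratio of −0.049 beside −0.014 over all genes. In alveolar fibroblast-like cells 2 rose and 3 fell of 32, with a median log2 ratio of −0.027 beside 0.0044 over all genes. In the peribronchial and airway smooth muscle-like class 1 rose and 1 fell of 19, with a median log2 ratio of 0.18 beside 0.046 over all genes, and in adventitial fibroblast-like cells 0 rose and 0 fell of 29, with a median log2 ratio of 0.16 beside 0.00047 over all genes. In pericyte-like cells 1 of 24 rose and 0 fell, and in vascular smooth muscle-like cells 0 of 12 rose and 0 fell. The shares of all genes that rose and fell are those given for each class above.

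Ligand RNA was scarce. *Shh*, the ligand of the lung epithelium, was found at 4.20 and 3.69 CPM in AT2-like cells of control and *Gli1 HHIPCKO* (62 and 62 UMIs), and at 23.2 and 17.4 CPM in ciliated-like cells. In an unnamed cluster led by *Scgb1a1*, *Scgb3a2* and *Cyp2f2* it was at 42.2 CPM in 32 control cells, and 0 UMIs were found in 15 *Gli1 HHIPCKO* cells. Stromal cells had 1 and 2 *Shh* UMIs. *Ihh* had 6 and 14 UMIs in AT2-like cells, and *Dhh* 4 and 2 in endothelial-like cells. *Shh* was thus epithelial in both libraries, at like levels in AT2-like cells.

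Among genes for ligand release, *Scube1* and *Scube3* are relatives of *Scube2*, and *Disp1* encodes the transporter that exports ligand. *Scube1*, with the most UMIs of this role in stromal cells, was at 33.2 and 40.5 CPM there. It rose in DMF-like cells from 24.4 to 66.2 CPM (log2 ratio 1.44, 1.03 to 1.87), and in the peribronchial and airway smooth muscle-like class, with 1.57 (0.83 to 2.38). *Scube3* rose in myofibroblast clusters, with 1.12 (0.31 to 1.98). *Disp1* fell in ALMF-like cells, with a log2 ratio of −2.06 (−3.34 to −0.97), and in myofibroblast clusters, with −1.32 (−1.92 to −0.75). *Scube1* and *Scube3* thus rose, and *Disp1* fell, in at least 1 group of myofibroblasts.

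At the surface, 1 of 4 reception genes tested (not named here) rose in myofibroblast clusters and 0 fell, beside 3.31% and 1.98% of all genes. In alveolar fibroblast-like cells 0 of 5 rose and 1 fell, beside 2.03% and 2.30% of all genes. The gene that fell was *Cdon*, a co-receptor related to *Boc*, at −1.20 (−1.77 to −0.63). By UMIs the most abundant gene of this role was *Gpc3*, a cell-surface glypican that competes for ligand, at 373 and 551 CPM in stromal cells. Of the 19 transduction genes, *Spop*, which encodes a ubiquitin ligase adaptor that acts on GLI proteins, passed 2-fold. It rose in alveolar fibroblast-like cells from 74.3 to 154 CPM (log2 ratio 1.05, 0.82 to 1.30), and in pericyte-like cells, at 1.27 (0.77 to 1.81). *Csnk1a1*, the most abundant of them by UMIs, was at 262 and 274 CPM in stromal cells. The other transduction genes tested stayed within 2-fold in each class.

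Among the targets, 2 forkhead genes rose in myofibroblasts. *Foxf1*, a forkhead factor of the lung mesenchyme, rose in DMF-like cells from 95.9 to 292 CPM (log2 ratio 1.60, 1.40 to 1.81). It also rose in myofibroblast clusters, at 1.08 (0.98 to 1.19), and in alveolar fibroblast-like cells, at 1.29 (0.88 to 1.72). *Foxl1* rose in myofibroblast clusters from 4 to 77 UMIs (log2 ratio 4.18, 2.76 to 6.09). In DMF-like cells 3 of the 9 targets tested rose and 0 fell, beside 2.55% and 2.11% of all 9680 genes tested. The others that rose there were *Ccnd2*, a D-type cyclin, at 1.16 (0.53 to 1.84), and *Osr1*, a zinc-finger factor, at 1.04 (0.68 to 1.43). Which pathway genes stayed past 2-fold in DMF-like cells under the other settings is not given here. *Osr1* fell in alveolar fibroblast-like cells, at −1.19 (−1.42 to −0.96).

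*Ccnd2*, higher in DMF-like cells, fell in ALMF-like cells, with a log2 ratio of −1.83 (−2.29 to −1.39), and in alveolar fibroblast-like (−1.08) and peribronchial and airway smooth muscle-like cells (−1.17). Over stromal cells *Ccnd2* was at 55.0 and 27.4 CPM (log2 ratio interval −1.16 to −0.85), and over myofibroblast clusters the ratio was −1.02. *Ccnd1*, another D-type cyclin, fell in stromal cells (−1.01) and myofibroblast clusters (−1.22). *Mycn*, a MYC-family factor, fell in the same groups of cells, at −1.20 and −1.62. With median-of-ratios scaling, *Mycn* alone of these 3 passed 2-fold in stromal cells. By UMIs the most abundant target was *Rab34*, which takes part in cilium formation, at 189 and 185 CPM in stromal cells.

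Likeness of pattern was measured as Pearson's r of log2(CPM + 1) over 26 points, the 13 classes in each of 2 libraries, against 12051 genes with at least 200 UMIs. The points share libraries and free RNA and are not independent, so r is a description. For *Hhip* the genes most alike were *Slitrk6* (0.896), *Cyp2e1* (0.879) and *Hr* (0.871), and for *Gli1* *Foxl1* (0.852), *Igf1* (0.849) and *Psd* (0.835). *Foxl1* is on the list of targets. *Ptch1* was most like *Ston1* (0.861), *Pkd2* (0.855) and *Plekhh2* (0.844), and *Gli3* most like *Irf2bpl* (0.872), *Mib2* (0.871) and *Dexi* (0.861). *Gas1* was most like *Rcn3* (0.946), *Ltbp4* (0.943) and *Col3a1* (0.928), *Boc* most like *Col6a2* (0.967), *Col5a2* (0.947) and *Ltbp4* (0.947), and *Smo* most like *Cpq* (0.936), *Timp2* (0.925) and *Dsel* (0.903). *Gli2* was most like *Larp6* (0.934), *Mir100hg* (0.903) and *Zfpm2* (0.877), and *Scube2* most like *Fn1* (0.912), *Macf1* (0.884) and *Mfap4* (0.881). Among the 9 genes themselves, *Gas1* and *Boc* were most alike (r = 0.924), and *Gli3* and *Scube2* least (r = −0.107). *Gli1* and *Ptch1* had r = 0.757, and *Hhip* and *Gli1* r = 0.395.

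Promoters, from 250 bases before to 50 after the start of transcription, were searched on both strands for the GLI motif GACCACCCA and the looser GACCNCCCA, which includes it. RefSeq promoters on GRCm38.p6 matched 7 of the 9 genes, all but *Gli1* and *Boc*, and 35 of the 46 pathway genes. Of all 32851 promoters, 83 (0.253%) held the motif and 321 (0.977%) its looser form. Neither form was found in the 7 promoters of the 9 genes or the 42 promoters of the pathway genes, which says only that these letters are not in these windows. The promoters of *Hhip* (chr8:80057959-80058258, minus strand) and *Ptch1* (chr13:63565686-63565985, minus strand) are shown, 5′ to 3′. These genes moved in opposite directions in DMF-like and peribronchial and airway smooth muscle-like cells. *Hhip* is the targeted gene, and promoter activity was not tested. The *Ptch1* window lies inside the gene as placed above (chr13:63508328-63573598), and the 5′ end of the gene was not searched. No base is in capitals, since no motif was found.
*Hhip*: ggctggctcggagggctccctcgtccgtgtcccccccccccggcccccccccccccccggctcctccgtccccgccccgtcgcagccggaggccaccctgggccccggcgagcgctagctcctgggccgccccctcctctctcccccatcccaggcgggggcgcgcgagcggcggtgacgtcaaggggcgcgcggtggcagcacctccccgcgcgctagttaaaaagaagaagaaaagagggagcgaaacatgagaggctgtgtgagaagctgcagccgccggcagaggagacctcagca
*Ptch1*: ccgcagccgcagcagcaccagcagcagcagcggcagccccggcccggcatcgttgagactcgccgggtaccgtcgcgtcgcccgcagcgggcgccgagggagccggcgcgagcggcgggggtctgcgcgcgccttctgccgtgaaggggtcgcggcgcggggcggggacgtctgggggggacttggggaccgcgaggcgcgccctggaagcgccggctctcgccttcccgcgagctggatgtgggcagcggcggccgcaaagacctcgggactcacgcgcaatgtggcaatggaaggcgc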

How the data were processed

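The deposited values are raw UMI counts per gene and cell, and per the file headers the authors made them with CellRanger 6.1.0, while the labels name version 3.1.0, on mm10. The series record and the sample labels name kits that read opposite ends of a transcript. Which end was read bears on whether *Hhip* UMIs come from the floxed exon. The filter kept cells with 200 to 6000 genes and up to 10% mitochondrial UMIs. The libraries were clustered together without integration (10000 UMIs per cell, log, 2000 variable genes, 30 components, 20 neighbours, Leiden resolution 1), with 61 genes held out, and stromal clusters were clustered again. Names needed a score of 1.0, 3 markers detected in 10% of cells and a marker among the 10 leading genes, with the next class of the lineage at most 0.7 of the best score. Outside the stroma, other lineages could score at most 0.35 of the best. Clusters with over 1.7 times the median UMIs of the largest cluster of their name were left unnamed. The naming thresholds were chosen and revised once with the clusters in view, and the fibroblast markers come largely from the study's own signature genes. The 9 genes and the lists were chosen with earlier results of these data known. Genes were named by rule, as the 9 genes, pathway genes past 2-fold in a class (not all are named), the most abundant of each role, and the 3 genes most like each of the 9, while genes named as leading a cluster were chosen after the clusters were seen. Cells were thinned to 2000 UMIs by random draw, and the steps were checked on simulated data. No tests were made with 1 library per group, and 15 alternative settings, with 2 more chosen after seeing the data, were tried. The software was matplotlib 3.10.9, leidenalg 0.10.2, igraph 0.11.9, scikit-learn 1.9.0, pandas 2.3.3, scipy 1.17.1 and numpy 2.4.6 under Python 3.11.15.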

Additional observations from a re-analysis of the deposited data

Results flagged for a closer look

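For 3 genes, 1 class was higher and another lower in *Gli1 HHIPCKO* than in control, each by at least 1.5-fold. *Gas1* had a log2 ratio of 0.83 in pericyte-like and −1.13 in alveolar fibroblast-like cells. The pericyte-like value was −0.32 with each library clustered on its own. *Ccnd2* had 1.16 in DMF-like and −1.83 in ALMF-like cells, and *Osr1* had 1.04 in DMF-like and −1.19 in alveolar fibroblast-like cells. With 1 library per group, the difference between the classes was not tested for any of these genes. The ALMF-like and DMF-like clusters each came mainly from 1 library, and *Ccnd2* and *Osr1* were not compared within them.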

How the results depend on the processing

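The results were recomputed under 15 alternative settings, and under 2 more chosen after seeing the data, which left out barcodes found in both libraries or took ALMF-like and DMF-like cells alone. Of the log2 ratios, 719 stayed within the interval of the value reported, 67 moved past it without a change of sign or with 0 inside the interval of the value reported, and 3 changed sign where that interval had left out 0. Of the counts of genes past 2-fold, 146 stayed within 1.5 times and 52 did not. Of the shares of stromal cells with a UMI, 1 stayed within its interval after thinning and 17 moved past it. In DMF-like cells the ratio of *Gli1* ran from 2.83 to 3.25, of *Ptch1* from 1.51 to 1.75 and of *Hhip* from −2.79 to −2.52, all past 2-fold. No paired analysis was possible because there was 1 library per group. Of the 9 genes, *Gli1* and *Gli2* had the fewest UMIs in stromal cells. At resolution 2 no value could be given for peribronchial and airway smooth muscle-like cells, called peribronchial cells here. Scaling by median of ratios moved the median of all genes by less than 0.1 in each class. The 3 values that changed sign from an interval leaving out 0 are those of *Boc* in stromal cells and *Ptch1* in alveolar cells with thinned cells, and of *Gas1* in pericyte-like cells with each library clustered on its own. Values with 0 inside their interval also changed direction, among them *Gas1* in adventitial and vascular smooth muscle-like cells, *Gli2* in ALMF-like cells and *Scube2* in adventitial cells. For every value that moved, the cause was not tested.

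At 1.5-fold, of the 9 genes 5 in stromal cells, 6 in myofibroblast clusters, 5 in ALMF-like cells, 3 in adventitial cells and 1 in pericyte-like cells passed. 7 of the pathway genes in stromal cells, 6 in ALMF-like cells, 7 in DMF-like cells, 5 in peribronchial cells, 6 in adventitial cells, 2 in vascular smooth muscle-like cells and 5 in pericyte-like cells passed. Of all genes tested, 13.7% in stromal cells, 14.1% in myofibroblast clusters, 14.5% in ALMF-like cells, 14.5% in DMF-like cells, 17.6% in peribronchial cells, 15.4% in adventitial cells, 18.2% in vascular smooth muscle-like cells and 12.3% in pericyte-like cells passed.

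Over ALMF-like and DMF-like cells in place of all myofibroblast clusters, chosen after seeing the data, the log2 ratio of *Hhip* was −1.82 in myofibroblast clusters.

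With all deposited barcodes, the log2 ratio of *Hhip* was −0.44 in ALMF-like cells and −2.66 in DMF-like cells. That of *Gli2* was −0.60 in ALMF-like cells. That of *Scube2* was 1.66 in ALMF-like cells, 0.56 in alveolar cells and 0.88 in vascular smooth muscle-like cells. That of *Gas1* was −0.83 in DMF-like cells. Of the 9 genes 0 in ALMF-like cells, 1 in alveolar cells and 1 in vascular smooth muscle-like cells passed 2-fold. 2 of the pathway genes in DMF-like cells passed 2-fold. Over all genes tested, 3.66% in ALMF-like cells, 4.84% in DMF-like cells, 3.89% in alveolar cells and 4.22% in vascular smooth muscle-like cells passed 2-fold.

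With a minimum of 20 UMIs, of the 9 genes 5 in peribronchial cells, 3 in vascular smooth muscle-like cells and 1 in pericyte-like cells passed 2-fold. 4 of the pathway genes in ALMF-like cells, 8 in DMF-like cells and 4 in peribronchial cells passed 2-fold. Of all genes tested, 6.71% in ALMF-like cells, 6.80% in DMF-like cells, 8.76% in peribronchial cells, 8.61% in vascular smooth muscle-like cells and 5.28% in pericyte-like cells passed 2-fold.

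With a minimum of 200 UMIs, of the 9 genes 0 in ALMF-like cells passed 2-fold. 2 of the pathway genes in myofibroblast clusters, 1 in ALMF-like cells, 0 in peribronchial cells and 3 in alveolar cells passed 2-fold. Beside these, 3.31% in myofibroblast clusters, 2.86% in ALMF-like cells, 4.49% in peribronchial cells and 2.39% in alveolar cells passed 2-fold over all genes tested.

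With cells thinned to 2000 UMIs, the log2 ratio of *Boc* was 0.054 in stromal cells and −0.24 in alveolar cells. That of *Scube2* was 1.62 in stromal cells. That of *Hhip* was −2.05 in peribronchial cells and −1.72 in adventitial cells. That of *Gas1* was −0.34 in peribronchial cells and −1.01 in alveolar cells. That of *Ptch1* was −0.020 in alveolar cells. Of the 9 genes 0 in ALMF-like cells passed 2-fold. 4 of the pathway genes in myofibroblast clusters, 2 in DMF-like cells, 3 in alveolar cells and 1 in vascular smooth muscle-like cells passed 2-fold. Over all genes tested, 4.77% in myofibroblast clusters, 4.07% in ALMF-like cells, 4.45% in DMF-like cells, 4.16% in alveolar cells and 4.97% in vascular smooth muscle-like cells passed 2-fold. The shares of stromal cells with a UMI, in control and *Gli1 HHIPCKO*, were then *Hhip* 39.0% and 23.6%, *Gli1* 1.69% and 4.34%, *Gli2* 5.05% and 4.11%, *Gli3* 9.85% and 5.67% and *Ptch1* 12.3% and 18.9%. They were *Smo* 11.5% and 10.4%, *Gas1* 40.3% and 29.2%, *Boc* 14.8% and 15.2% and *Scube2* 11.5% in control.

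Without doublets, the log2 ratio of *Gli2* was −0.56 in ALMF-like cells. *Gas1* had −0.45 in ALMF-like cells, −0.11 in adventitial cells, −0.98 in alveolar cells and 0.66 in vascular smooth muscle-like cells. *Scube2* had 1.55 in ALMF-like cells and 0.20 in alveolar cells. *Hhip* had −1.94 in adventitial cells. *Boc* had −0.14 in alveolar cells. Of the 9 genes 1 in ALMF-like cells and 1 in alveolar cells passed 2-fold. 5 of the pathway genes in myofibroblast clusters, 1 in adventitial cells and 2 in alveolar cells passed 2-fold. Of all genes tested, 5.25% in myofibroblast clusters, 3.59% in ALMF-like cells, 3.08% in adventitial cells and 3.97% in alveolar cells passed 2-fold.

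With each library clustered on its own, the log2 ratio of *Hhip* was −2.14 in myofibroblast clusters, −0.45 in ALMF-like cells, −2.72 in DMF-like cells, −1.63 in peribronchial cells, −1.47 in alveolar cells and −3.57 in pericyte-like cells. It was 1.80 in ALMF-like cells, −1.09 in adventitial cells and 0.52 in alveolar cells for *Scube2*. It was −1.38 in DMF-like cells, −0.32 in peribronchial cells, 0.23 in adventitial cells, −1.77 in alveolar cells, 1.56 in vascular smooth muscle-like cells and −0.32 in pericyte-like cells for *Gas1*. It was 0.16 in adventitial cells for *Ptch1*. Of the 9 genes 1 in ALMF-like cells, 2 in adventitial cells, 4 in vascular smooth muscle-like cells and 1 in pericyte-like cells passed 2-fold. 2 of the pathway genes in DMF-like cells, 3 in adventitial cells and 6 in vascular smooth muscle-like cells passed 2-fold. Beside these, 3.94% in ALMF-like cells, 4.66% in DMF-like cells, 5.09% in adventitial cells, 15.5% in vascular smooth muscle-like cells and 3.07% in pericyte-like cells passed 2-fold over all genes tested.

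With equal weight for each stromal class, the log2 ratio of *Hhip* was −1.95 in stromal cells. That of *Gli3* was −0.52 in stromal cells. That of *Ptch1* was 0.92 in stromal cells. That of *Gas1* was −0.39 in stromal cells. That of *Boc* was −0.41 in stromal cells. That of *Scube2* was 0.66 in stromal cells.

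As a mean over cells, the log2 ratio of *Hhip* was −2.17 in stromal cells, −0.45 in ALMF-like cells, −2.04 in peribronchial cells and −0.86 in alveolar cells. *Scube2* had 1.46 in stromal cells and 0.49 in alveolar cells.

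With median-of-ratios scaling, 1 of the pathway genes in stromal cells passed 2-fold. Beside these, 4.45% in stromal cells passed 2-fold over all genes tested.

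At resolution 0.5, the log2 ratio of *Hhip* was −0.91 in ALMF-like cells, −2.73 in DMF-like cells and −2.39 in vascular smooth muscle-like cells. That of *Gli1* was 0.0054 in ALMF-like cells. That of *Gli2* was −1.78 in ALMF-like cells. That of *Scube2* was 1.33 in ALMF-like cells. That of *Gas1* was −0.74 in DMF-like cells and 0.16 in pericyte-like cells. Of the 9 genes 1 in ALMF-like cells, 2 in vascular smooth muscle-like cells and 1 in pericyte-like cells passed 2-fold. 4 of the pathway genes in ALMF-like cells and 2 in DMF-like cells passed 2-fold. Over all genes tested, 4.63% in ALMF-like cells, 4.94% in DMF-like cells, 3.01% in vascular smooth muscle-like cells and 2.66% in pericyte-like cells passed 2-fold.

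At resolution 2, the log2 ratio of *Hhip* was −2.16 in myofibroblast clusters, −0.37 in ALMF-like cells and −2.79 in DMF-like cells. *Gas1* had −0.42 in ALMF-like cells and −0.10 in adventitial cells. *Scube2* had 1.37 in ALMF-like cells, 0.65 in adventitial cells and 0.27 in alveolar cells. *Boc* had −0.20 in alveolar cells. Of the 9 genes 1 in ALMF-like cells passed 2-fold. 3 of the pathway genes in alveolar cells passed 2-fold. Of all genes tested, 3.70% in ALMF-like cells and 3.91% in alveolar cells passed 2-fold.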
